A study of Mus musculus with 2 samples.

Results

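The genes described here are 10 genes of the integrated stress response and the unfolded protein response, of 31053 genes counted. They are Ddit3, Atf4, Atf5, Atf6, Eif2ak3, Ern1, Xbp1, Trib3, Chac1 and Ppp1r15a. They were taken by name for their place in these pathways, with earlier results of these data known. Their levels are given as CPM, which are the unique molecular identifiers (UMIs, 1 per captured RNA molecule) of a gene in all nuclei of 1 label and library, scaled to 1000000 UMIs of the same nuclei. Where a pair of values is given with no other word, the first is the male and the second the female library.

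Single nuclei came from mouse cerebral cortex after a mild traumatic brain injury (mTBI), delivered to the closed skull. The mice were of the strain Atf3-CreER::Sun1-sfGFP, heterozygous for both alleles and older than 7 weeks. Cre recombinase is driven from the Atf3 locus in this line and is active only with tamoxifen, so cells that expressed Atf3 around the 2 doses at 4 and 5 days post injury (dpi) carried GFP on the nuclear envelope. Nuclei positive for GFP and the DNA dye DRAQ5 were sorted from the injured side at 7 dpi. There were 2 libraries, 1 from 4 pooled male mice and 1 from 4 pooled female mice, and every comparison below runs between labels of nuclei within these injured animals. No uninjured nuclei were in the libraries, so whether a level was raised by injury was not measured. The Sex label of the library titled F reads male, whereas its nuclei held 37890 Xist UMIs against 36 in the other library and 23 UMIs of Y-linked genes against 3309. It is called the female library here.

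The integrated stress response begins with kinases that phosphorylate the translation factor eIF2 and so lower protein synthesis, while translation of the transcription factor ATF4 rises. ATF4 and its partners then drive amino acid synthesis and transport genes, the transcription factor CHOP (encoded by Ddit3), the pseudokinase TRIB3 and the glutathione-degrading enzyme CHAC1, and GADD34 (Ppp1r15a) brings a phosphatase back to eIF2. The unfolded protein response has 3 sensors in the membrane of the endoplasmic reticulum (ER): PERK (Eif2ak3), itself an eIF2 kinase, IRE1 (Ern1), which splices the Xbp1 transcript, and ATF6, which is cut to release a transcription factor. In neurons ATF4 and CHOP are known from axon injury, where they can precede cell death. Phosphorylation, splicing of Xbp1 and cleavage of ATF6 cannot be read from 3′ UMI counts.

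The deposited cell labels covered 8171 nuclei of 8258 called barcodes, and 7517 of them fell under the labels used. These were 2499 neuronal nuclei of 9 labels, 395 nuclei labelled Unknown and 4623 nuclei of 6 non-neuronal labels, of which microglia (Micro-PVM) had 1690 male and 2338 female nuclei. The excitatory labels were L2/3 IT CTX-1, L2/3 IT CTX-2, L4/5 IT, L5 PT, L6 IT and L6 CT, where IT are neurons projecting within the telencephalon, PT pyramidal tract neurons and CT corticothalamic neurons. The inhibitory labels were Pvalb, Sst and Vip. Called barcodes held 11007366 and 23202343 UMIs, and the neuronal nuclei were correspondingly shallower in the male library. The inhibitory markers Gad1, Gad2 and Slc32a1 summed to 400.1 to 819 CPM in the inhibitory labels and 0 to 105 CPM in the excitatory labels, the highest of these in the male L6 IT sum. The label L6 IT was mixed, since its 188 nuclei included 27 in a deposited cluster led by Pvalb nuclei. Only 20 male and 20 female L6 IT nuclei lay in a cluster led by their own label. L4/5 IT had 0 such nuclei in either library. Its nuclei lay in clusters led by L2/3 IT (92), L6 CT (46) and L6 IT (33). The microglial marker Csf1r was at 5.63 to 43.6 CPM in the neuronal sums and at 501 and 458 CPM in microglia, and Cx3cr1 at 5.46 to 50.8 CPM against 565 and 389 CPM. The part of such RNA from other cells in the results below was not tested unless a value is given. In pooled sums, fewer expressing nuclei and less RNA per nucleus cannot be told apart.

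Promoter sequence was searched for the elements through which these pathways act, because several members are targets of others. Windows from 250 bases before to 50 after a transcription start (RefSeq, GRCm38.p6) were found for 9 of the 10 members. The C/EBP-ATF response element, searched as TGATGNAA on both strands, was in 2 member promoters, those of Chac1 and Trib3, and in 3.97% of all 32851 windows. The cyclic AMP response element TGACGTCA was in the Ppp1r15a promoter and in 1.79% of windows. An XBP1 element searched as TGACGTGG was in no member window and 0.676% of all, and the ER stress element was in none and 0.119% of all. The 3 stretches with a match are shown 5′ to 3′ on the strand of the gene, with the match in capitals; the first 2 hold the element on the opposite strand. A match of letters is no evidence of binding.
Chac1, chr2:119351024-119351081, plus strand: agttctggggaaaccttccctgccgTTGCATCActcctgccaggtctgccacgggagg
Trib3, chr2:152344039-152344071, minus strand: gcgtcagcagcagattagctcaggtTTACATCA
Ppp1r15a, chr7:45526269-45526305, minus strand: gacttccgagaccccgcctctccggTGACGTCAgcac

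Ddit3, which encodes CHOP, was highest in 3 excitatory labels and lower in the other 3 excitatory and the 3 inhibitory ones. It lies on chromosome 10 (chr10:127290774-127296288, plus strand, GRCm38). It was at 270.1 and 154 CPM in L5 PT, and at 356 and 151 CPM in L6 IT. In L2/3 IT CTX-2 it was at 213 and 117 CPM. These 3 labels were the highest in both libraries. Pvalb stood at 123 and 49.6 CPM, and L2/3 IT CTX-1, the larger of the upper layer labels, at 92.1 and 69.8 CPM. L6 CT was at 81.2 and 69.6 CPM. The lowest neuronal labels were L4/5 IT with 56.1 and 52.1 CPM, Sst with 61.6 and 42.4 CPM, and Vip with 89.3 and 11.1 CPM, the last from 11 and 2 UMIs. In the order of means, neighbouring labels overlapped between libraries at each step except between L6 CT and L4/5 IT.

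Ddit3 was higher in the male library in 9 of 9 neuronal labels and in 14 of 15 labels with nuclei in both libraries. Barcodes of at most 100 UMIs, which hold free RNA, had Ddit3 at 201 and 124 CPM, a difference of the same direction. With 1 pool a sex, and depth differing too, sex and library cannot be told apart. A second gene model inside Ddit3 on the same strand was also counted and had 0 UMIs in both libraries, against 1084 and 1325 for Ddit3.

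**Figure D1:**
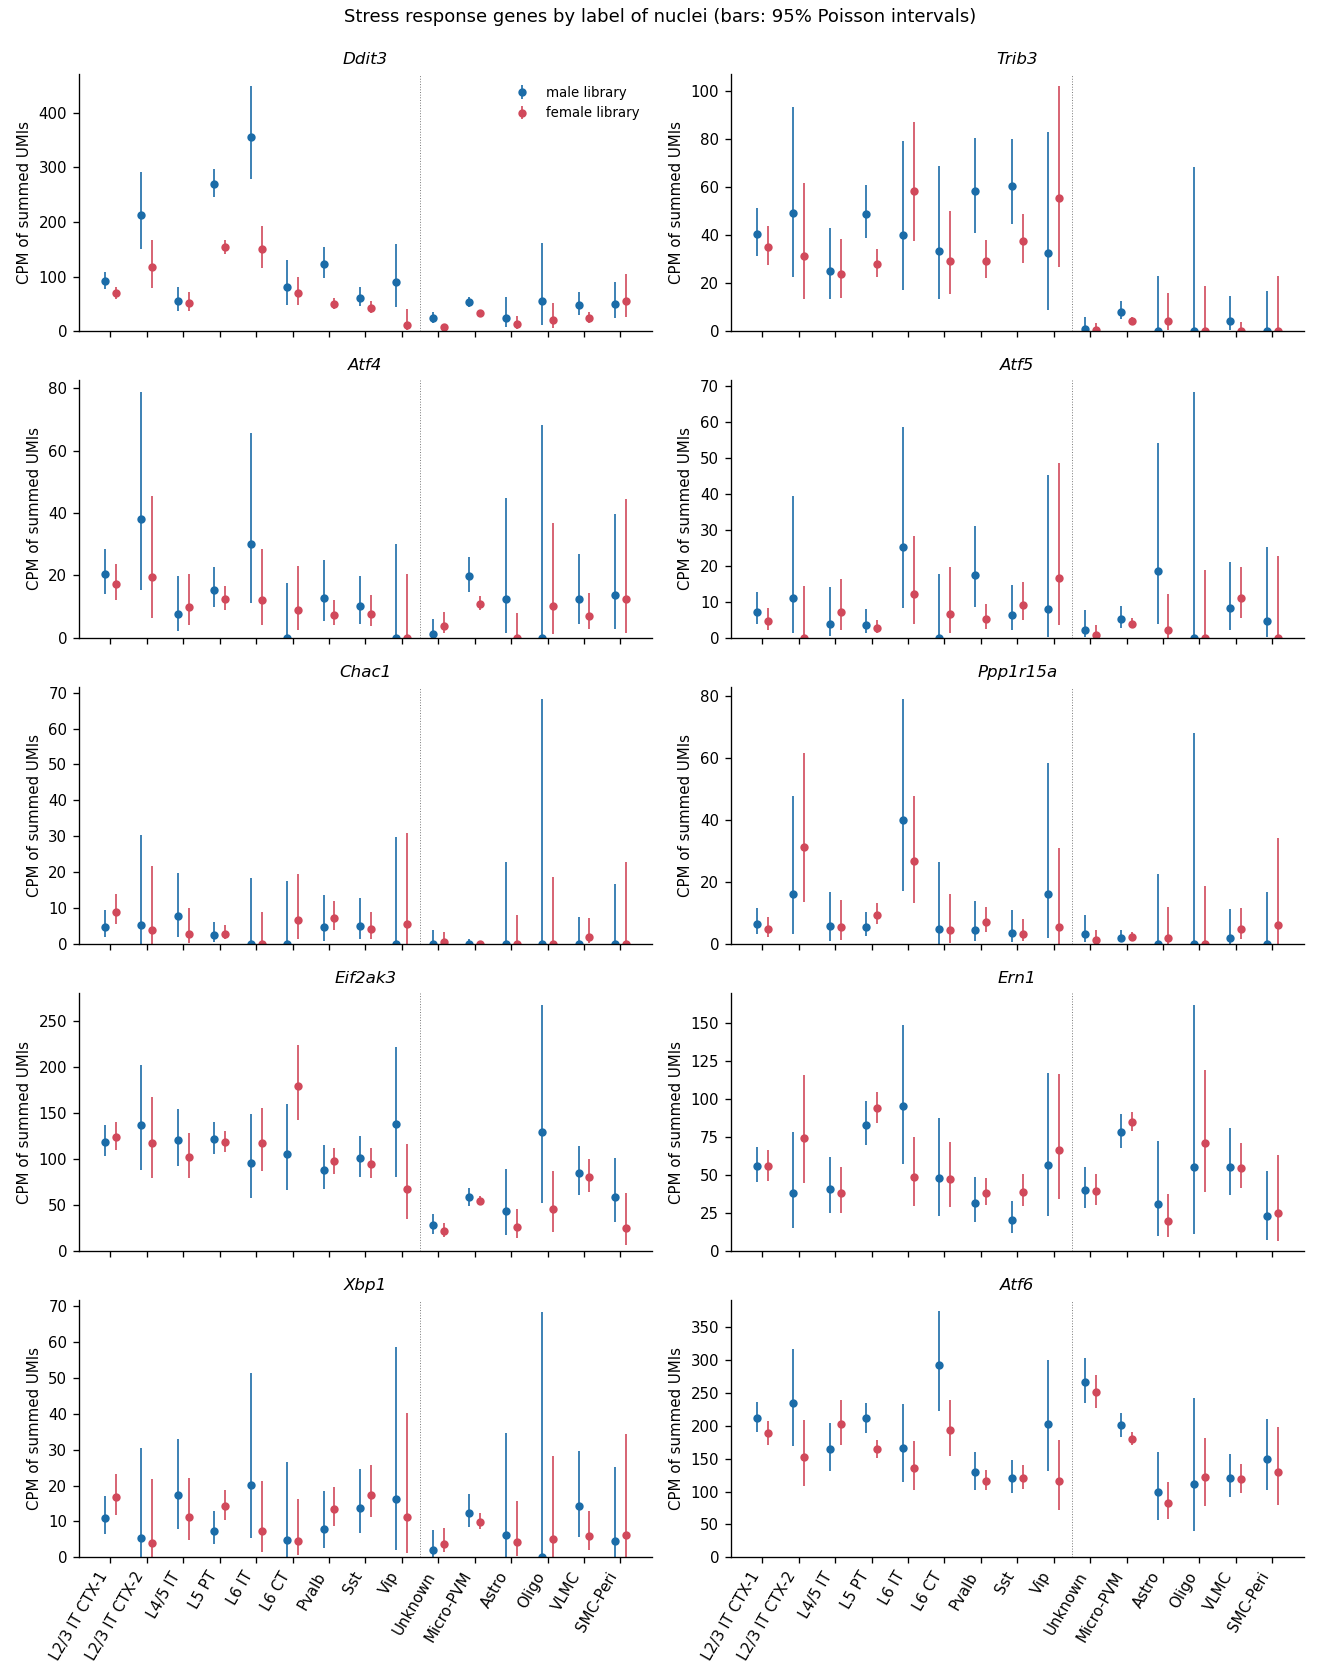
Level of each of the 10 genes (CPM of summed UMIs, linear axes from 0) in 9 neuronal labels, left of the dotted line, and 6 other labels. Blue and red points are the male and female library and bars are 95% Poisson intervals, which cover counting error only. Ddit3 is highest in L6 IT, L5 PT and L2/3 IT CTX-2 in both libraries, and Trib3 is near 0 outside neurons.

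The level of Ddit3 differed among the 9 neuronal labels by more than the spread between the libraries (omnibus test over labels by quasi-likelihood in edgeR, p adjusted by Benjamini-Hochberg over all genes, 0.00013). Ern1 (adjusted p = 0.0073), Ppp1r15a (adjusted p = 0.016) and Atf6 (adjusted p = 0.034) also varied by this edgeR test. Thus 4 of the 7 members with enough UMIs to be tested passed, where 27.3% of all 10642 genes did. The edgeR adjusted p was 0.11 for Atf4, 0.67 for Trib3 and 0.73 for Eif2ak3, which did not pass. Atf5, Xbp1 and Chac1 fell below the filter on low counts and have no test. After subtraction of an ambient profile scaled to all microglial markers none of the 4 passed, with adjusted p = 0.053 for Ddit3 in edgeR; over the other 8 alternatives the Ddit3 adjusted p was at most 0.00061. Because p-values rest on 2 pooled libraries a label, they measure the spread between those pools.

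Layer 5 and layer 2/3 neurons are the contrast on which the study turns. In L5 PT, Ddit3 was at 270.1 and 154 CPM, and in both L2/3 IT labels together at 104 and 74.8 CPM, so the libraries did not overlap. The fitted log2 fold change, against the mean of the 2 L2/3 IT labels, was 0.95 (SE 0.31), with an adjusted p of 0.061 in edgeR. None of the 7 tested members passed the threshold, where 8.01% of all genes did. DESeq2 also called 0 of them, and 2 members, of 1978 genes in all, had an unadjusted p under 0.05. Ern1, the RNA-splicing sensor, was next with a log2 fold change of 0.73 (SE 0.26, edgeR adjusted p = 0.084). It was at 83.3 and 94.0 CPM in L5 PT, above both libraries of L2/3 IT CTX-1 (56.0 and 55.8 CPM). Trib3 (0.05, SE 0.35), Eif2ak3 (0.04, SE 0.22) and Atf6 (0.02, SE 0.19) had log2 fold changes close to 0. Atf4 (−0.64, SE 0.44) and Ppp1r15a (−0.50, SE 0.50) had negative ones that did not pass.

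Whether Ddit3 passed this layer contrast depended on the fit. With library added as a replicate block, which pairs labels from the same pool, its log2 fold change was 0.94 with an adjusted p of 0.0012 in edgeR, and Ern1 then had 0.73 with an adjusted p of 0.018. Over 10 alternatives the Ddit3 adjusted p ran from 0.0012 to 0.44 in edgeR or DESeq2, with 7 of them at or above 0.05; 1 of the 3 below left out deposited cluster 14, singled out for its Ddit3 level and described below, and is no support. Its log2 fold change ran from 0.85 to 1.81.

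Against the mean of all 5 other excitatory labels, L5 PT had higher Ddit3 and higher Ern1. Ddit3 had a log2 fold change of 1.08 (SE 0.27, edgeR adjusted p = 0.0066) and Ern1 one of 0.85 (SE 0.21, edgeR adjusted p = 0.0077). These were 2 of the 7 tested members, where 10.9% of all genes passed and 6.96% were higher. The other 5 had log2 fold changes from −0.30 to 0.15. Over 9 alternatives the Ddit3 adjusted p ran from 3.0e-06 to 0.17 in edgeR or DESeq2 and missed the threshold in 2, namely DESeq2 (0.073) and the ambient subtraction (0.17). Ern1 missed it in 1, after the ambient subtraction (edgeR adjusted p = 0.11).

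**Figure D2:**
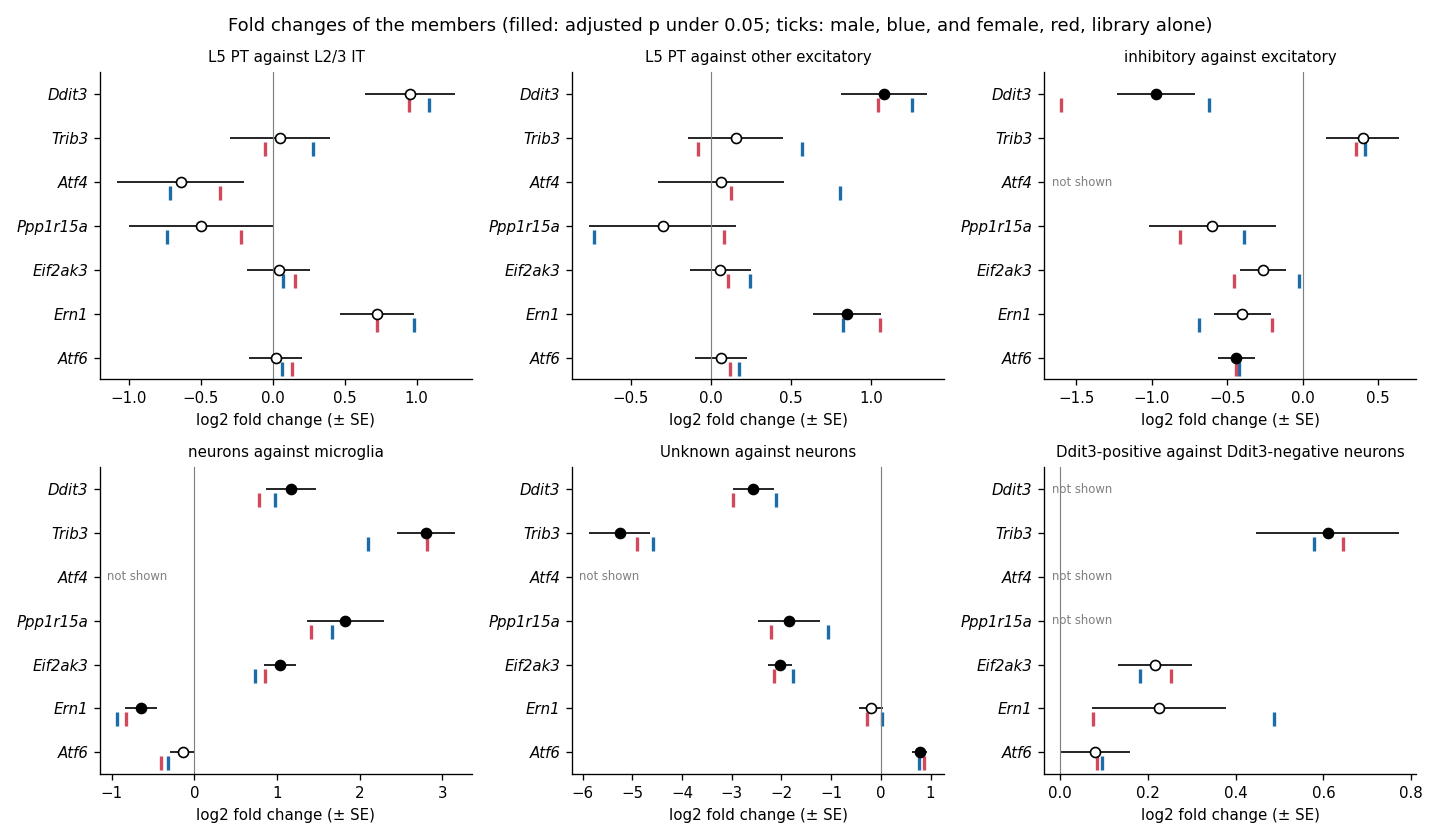
Log2 fold changes of the tested members in 6 comparisons (points with SE bars; filled where the adjusted p from edgeR is under 0.05; ticks give the male library in blue and the female in red alone). Atf4 is left out of the inhibitory, microglia and Unknown panels, and Ddit3, Atf4 and Ppp1r15a were not tested by Ddit3 status. Ddit3 and Ern1 pass in L5 PT against the other excitatory labels. Against L2/3 IT both miss the threshold in the fit shown and pass with the library as a replicate block. The value for Trib3 is 2.80 in neurons against microglia and negative in Unknown nuclei, where Ddit3 has −2.57 and Eif2ak3 −2.03.

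Taken as groups, inhibitory neurons had less Ddit3 and less Atf6 than excitatory neurons. Ddit3 summed to 170 and 113 CPM in excitatory and 88.8 and 44.7 CPM in inhibitory nuclei, so the pooled sums did not overlap. Single labels did overlap. Pvalb stood at 123 and 49.6 CPM of Ddit3, against 56.1 and 52.1 CPM in L4/5 IT and 81.2 and 69.6 CPM in L6 CT. The log2 fold change of Ddit3 was −0.97 (SE 0.26, edgeR adjusted p = 0.0074). Atf6, the cleaved sensor, had −0.44 (SE 0.12, edgeR adjusted p = 0.012). Pvalb stood at 129 and 117 CPM of Atf6 and Sst at 121 and 121 CPM, against 212 and 189 CPM in L2/3 IT CTX-1. The third inhibitory label, Vip, was at 203 and 117 CPM and overlapped the excitatory L6 IT at 166 and 136 CPM. Ddit3, Atf6 and Atf4 were the 3 members that passed, where 17.4% of all genes did and 9.11% were lower. The Atf4 call rested on Vip, whose sums held 0 Atf4 UMIs, and without Vip its log2 fold change was −0.50 (adjusted p = 0.40 in edgeR, the highest of 8 alternatives that began at 0.039). The Ddit3 call was lost in 2 of 9 alternatives: without deposited cluster 14, which is described below and holds no inhibitory nuclei (−0.63, edgeR adjusted p = 0.095), and after the ambient subtraction (edgeR adjusted p = 0.20), against a lowest value of 0.00010. Atf6 lost its call in 3 of 9. Ern1 had a log2 fold change of −0.40 (SE 0.19, edgeR adjusted p = 0.17), and passed only without Vip (−0.64, edgeR adjusted p = 0.018), where the adjusted p in the other 8 alternatives was 0.099 to 0.68. Trib3 had a log2 fold change of 0.40 (SE 0.24, edgeR adjusted p = 0.31), opposite in sign to that of Ddit3.

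Shares of nuclei with a UMI were compared after each nucleus was thinned to 2300 UMIs, since deeper nuclei show more genes; this left out 385 and 117 shallower neurons. In L5 PT, 36.2% of male nuclei (95% Clopper-Pearson interval 30.4 to 42.3%) and 29.5% of female nuclei (24.3 to 35.2%) had a Ddit3 UMI at this depth. L2/3 IT CTX-1 had 15.3 and 13.1%, so the L5 PT shares were higher in both libraries. The smaller L2/3 IT CTX-2 had 8 and 26.5%, from 2 male nuclei with a UMI and 23 without, and 9 and 25 female nuclei. In L6 IT, few nuclei were left: 9 male nuclei had a Ddit3 UMI and 19 had none, and 11 and 48 female nuclei. Pvalb had 27.4 and 10.9% and Sst 14 and 9.29%. Unknown nuclei had 4.38 and 1.25%, and microglia 8.76 and 7.10%. Over all neurons the share was 22.6 and 17.1% when thinned, and 35.8 and 38.6% before thinning, where the deeper female library was the higher. In L5 PT before thinning, 59.4 and 67.2% of nuclei had at least 1 Ddit3 UMI, 30.1 and 45.5% had at least 2, and the highest nuclei had 13 and 20. Intervals cover counting error only.

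**Figure D3:**
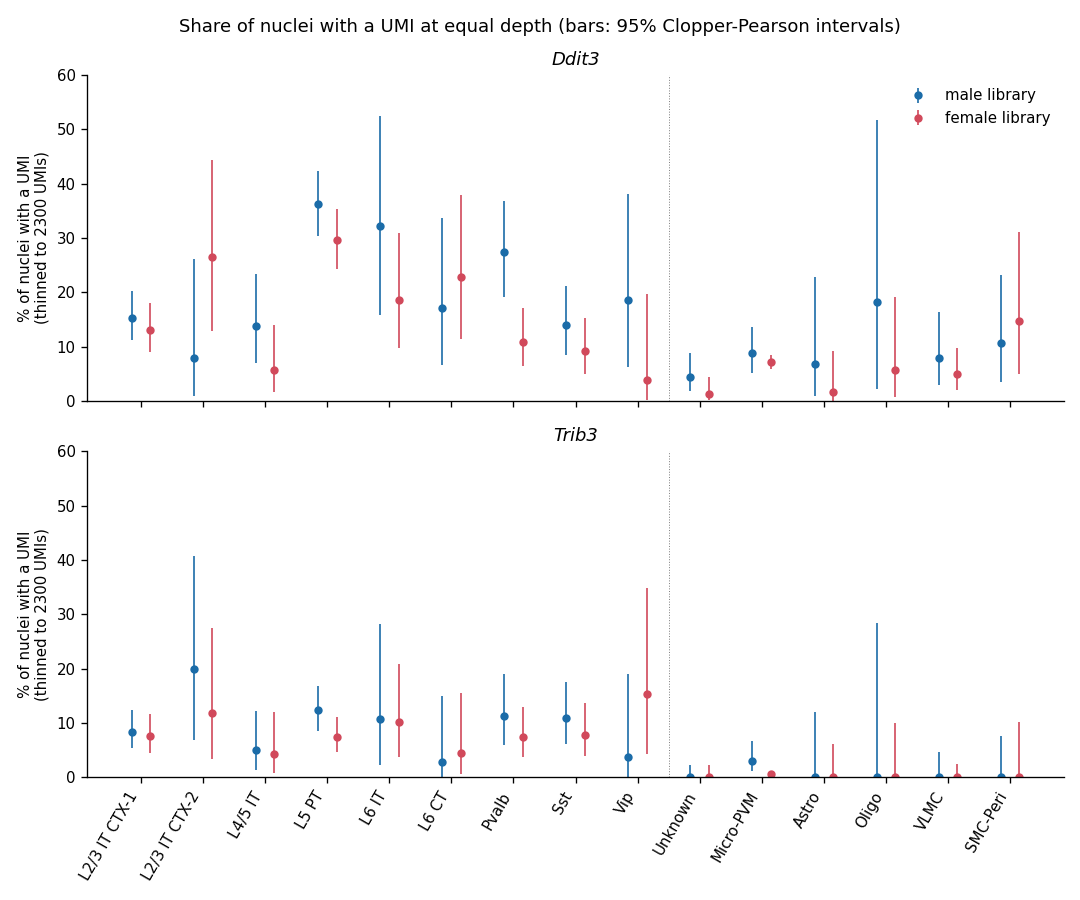
Share of nuclei with at least 1 Ddit3 (top) or Trib3 (bottom) UMI after thinning each nucleus to 2300 UMIs, by label, with 95% Clopper-Pearson intervals (male library blue, female red; shallower nuclei left out). L5 PT is at 36.2 and 29.5% for Ddit3, and no Unknown nucleus of 160 in either library kept a Trib3 UMI.

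Trib3, a target of ATF4 and CHOP that in turn restrains ATF4, was present across neurons and nearly absent elsewhere. It lay between 23.9 and 60.3 CPM over the 18 neuronal sums, and over all neurons at 45.8 and 32.3 CPM. Sst (60.3 and 37.6 CPM), Pvalb (58.3 and 29.4 CPM) and L5 PT (49.0 and 28.1 CPM) overlapped between libraries, and no difference among neuronal labels passed. Microglia had 8.02 and 4.1 CPM from 20 and 33 UMIs, oligodendrocytes and SMC-Peri nuclei had 0 UMIs, and free RNA in small barcodes had 35.2 and 26.1 CPM. Unknown nuclei had 1 Trib3 UMI in each library, or 1.06 and 0.631 CPM.

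The remaining members of the ATF4 axis were sparse. Atf4 itself, which is controlled mainly at translation, stood at 15.4 and 11.5 CPM over all neurons, highest in L2/3 IT CTX-2 with 38.2 and 19.5 CPM from 7 and 5 UMIs, and microglia had 19.6 and 10.9 CPM. Ppp1r15a, the feedback phosphatase subunit, was at 40.2 and 26.8 CPM in L6 IT and 16.4 and 31.2 CPM in L2/3 IT CTX-2, and between 3.48 and 16.2 CPM in the other 7 neuronal labels. Atf5, an ATF4-related factor, was at 7.39 and 5.25 CPM over all neurons, and Chac1 at 4.03 and 5.16 CPM. Chac1 had 0 and 1 UMIs in microglia and 0 and 1 in Unknown nuclei, so nearly all of its UMIs were neuronal. Antisense genes overlap Atf5 (Nup62 and Il4i1), Ppp1r15a (Tulp2) and Ddit3 (Mars).

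Of the sensors, Ern1 and Atf6 varied among the neuronal labels by the omnibus test given above, and Eif2ak3 did not pass it. Eif2ak3 (PERK) was at 113 and 113 CPM over all neurons and between 66.7 and 138 CPM in 17 of the 18 sums, the exception being 179.5 CPM in female L6 CT, against 105 CPM in male L6 CT. Atf6 was at 189 and 157 CPM over all neurons and highest in L6 CT with 291 and 193 CPM. Ern1 (IRE1) was at 55.2 and 61.3 CPM, with 20.1 and 38.9 CPM in Sst, 83.3 and 94.0 CPM in L5 PT and 95.4 and 48.7 CPM in L6 IT. Xbp1, the transcript that IRE1 splices, was at 10.6 and 13.9 CPM.

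Neurons and microglia, the largest classes in the sort, differed in 5 of 7 tested members, where 59.9% of all genes passed. Trib3 was higher in neurons by a log2 fold change of 2.80 (SE 0.35, edgeR adjusted p = 9.0e-08), and Ppp1r15a by 1.83 (SE 0.46, edgeR adjusted p = 0.0012). Ddit3 was higher by 1.16 (SE 0.30, edgeR adjusted p = 0.0015), from 149 and 91.0 CPM in neurons against 53.3 and 33.1 CPM in microglia. Eif2ak3 was higher by 1.04 (SE 0.19, edgeR adjusted p = 3.4e-05). In the other direction Ern1 was lower in the mean of the neuronal labels, with −0.64 (SE 0.19, edgeR adjusted p = 0.0052). It was at 55.2 and 61.3 CPM in neurons and 78.6 and 85.1 CPM in microglia. This did not hold for every label, since L5 PT had 83.3 and 94.0 CPM and L6 IT 95.4 and 48.7 CPM. Atf6 (−0.14, SE 0.15, edgeR adjusted p = 0.44) and Atf4 (−0.94, SE 0.52, edgeR adjusted p = 0.12) did not pass. The Atf4 value includes Vip, which had 0 CPM. The 4 higher members kept their calls in every alternative with a value, and Ern1 lost its call in 1 of 9, the ambient subtraction (edgeR adjusted p = 0.14).

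Nuclei labelled Unknown had lower Ddit3, Eif2ak3 and Trib3 than neurons, and lower Ppp1r15a on few UMIs, while carrying neuronal transcripts. They held the neuronal markers Rbfox3 at 1539 and 1712 CPM and Syt1 at 2187 and 1947 CPM, and the glutamate transporter Slc17a7 at 222 and 138 CPM. Their median depth, 3314 and 7918 UMIs, was near that of neurons, 3572 and 8519 UMIs. The reporter's own gene Atf3 was at 4.25 and 5.05 CPM, against 106 and 170 CPM in neurons.

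Ddit3 was at 23.4 and 6.94 CPM in Unknown nuclei against 149 and 91.0 CPM in neurons, a log2 fold change of −2.57 (SE 0.41, edgeR adjusted p = 1.0e-05). Eif2ak3 was at 27.6 and 22.1 CPM against 113 and 113 CPM, with −2.03 (SE 0.24, edgeR adjusted p = 8.5e-08). Trib3, with 1 UMI a library, had a CPM 43.1 times (95% interval 7.67 to 1708) and 51.3 times (9.14 to 2031) as high in neurons in the 2 libraries, and passed the edgeR test (adjusted p = 1.0e-07). These 3 calls held in all 9 alternatives. The thinned share of Unknown nuclei with Trib3 was 0 of 160 in each library (upper limit 2.28%), against 9.91 and 7.71% of neurons.

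Atf6 went the other way, at 267 and 251 CPM in Unknown nuclei against 189 and 157 CPM in neurons (log2 fold change 0.79, SE 0.15, edgeR adjusted p = 0.00011), and lost its call in 1 of 9 alternatives, the ambient subtraction (edgeR adjusted p = 0.17). Ern1 (−0.20, SE 0.24, edgeR adjusted p = 0.62) did not pass. Ppp1r15a passed with −1.85 (SE 0.63, edgeR adjusted p = 0.025) on 3 and 2 Unknown UMIs, and missed in 2 of 8 alternatives, without the filter (0.061) and without cluster 14 (0.15). In all, 5 of 7 tested members passed in this comparison, where 30.8% of all genes did. The Unknown label joined 2 deposited clusters. The larger, of 333 nuclei, had Ddit3 at 20 and 7.31 CPM, and the smaller, of 62 nuclei, at 95.9 and 0 CPM.

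The wider pathways were taken from 6 lists of 89 genes, of which 88 were measured and 66 tested. Genes of these lists named below, other than Eif2ak2, were chosen after their values were seen. Between L5 PT and L2/3 IT, 1 of 66 passed, against 8.01% of all genes, and the median log2 fold change of the 66 was −0.20 beside 0.02 for all genes. The gene was Eif2ak2, the kinase PKR that phosphorylates eIF2 on sensing double-stranded RNA, at 30.0 and 23.1 CPM in L5 PT against 10.3 and 11 CPM (log2 fold change 1.47, SE 0.40, edgeR adjusted p = 0.020). Microglia held it at 129 and 109 CPM. None of 27 tested ATF4 targets, 3 CHOP targets, 12 XBP1 targets and ER-associated degradation genes, or 8 ER chaperones passed by this edgeR test or by DESeq2, and 4, 0, 2 and 1 of them had an unadjusted p under 0.05.

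Against the other excitatory labels, 5 of 66 list genes passed, or 7.58%, below the 10.9% of all genes. Besides Eif2ak2 (1.95, SE 0.35), the higher ones were Wars, a tryptophan-tRNA synthetase and ATF4 target (0.99, SE 0.21), the ER-bound transcription factor Creb3l2 (0.76, SE 0.22) and Sec24d, of the vesicle coat (0.76, SE 0.25). The mitochondrial folate enzyme Aldh1l2, also an ATF4 target, was lower (−0.94, SE 0.25). Wars was at 160 and 112 CPM in L5 PT. Between inhibitory and excitatory neurons 4 of 66 passed, or 6.06%, below the 17.4% of all genes, 2 in each direction, with a list median of −0.11 beside −0.08 for all genes. Over the 9 neuronal labels 11 of 66 passed, or 16.7%, below the 27.3% of all genes; 2 were CHOP targets of the cell death family, Bbc3 and Bcl2l11. Bbc3 was at 78.4 and 25.5 CPM in L5 PT and 42.8 and 20.3 CPM in L2/3 IT, while Bcl2l11 was at 15.9 and 11.9 CPM in L5 PT and 27.1 and 28.8 CPM in L2/3 IT.

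In Unknown nuclei the ATF4 targets were lower as a group. Of 27 tested, 16 were lower and 1 higher by the edgeR test, with a median log2 fold change of −1.10 against 0.06 for all genes, of which 12.6% were lower. Aldh1l2 was at 3.19 and 2.52 CPM against 49.5 and 48.5 CPM in neurons. The amino acid transporter Slc7a1 was at 11.7 and 5.68 CPM against 103 and 89.1 CPM, and the asparagine synthetase Asns at 9.57 and 10.7 CPM against 42.6 and 27.4 CPM. Of the 16, 8 were aminoacyl-tRNA synthetases, among them Sars at 134 and 46.0 CPM against 412 and 217 CPM. The exception was Jdp2, a repressor of the AP-1 family, at 74.4 and 88.9 CPM against 40.6 and 41.8 CPM. Of the ER chaperones 3 of 8 were lower, including BiP (Hspa5) at 23.4 and 18.9 CPM against 100.05 and 128 CPM. Of the XBP1 and degradation genes 3 of 12 were lower and 1 higher, of the eIF2 kinases and machinery 2 of 11 lower, of the other sensors 1 of 5 lower, and of the CHOP targets 0 of 3.

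**Figure D4:**
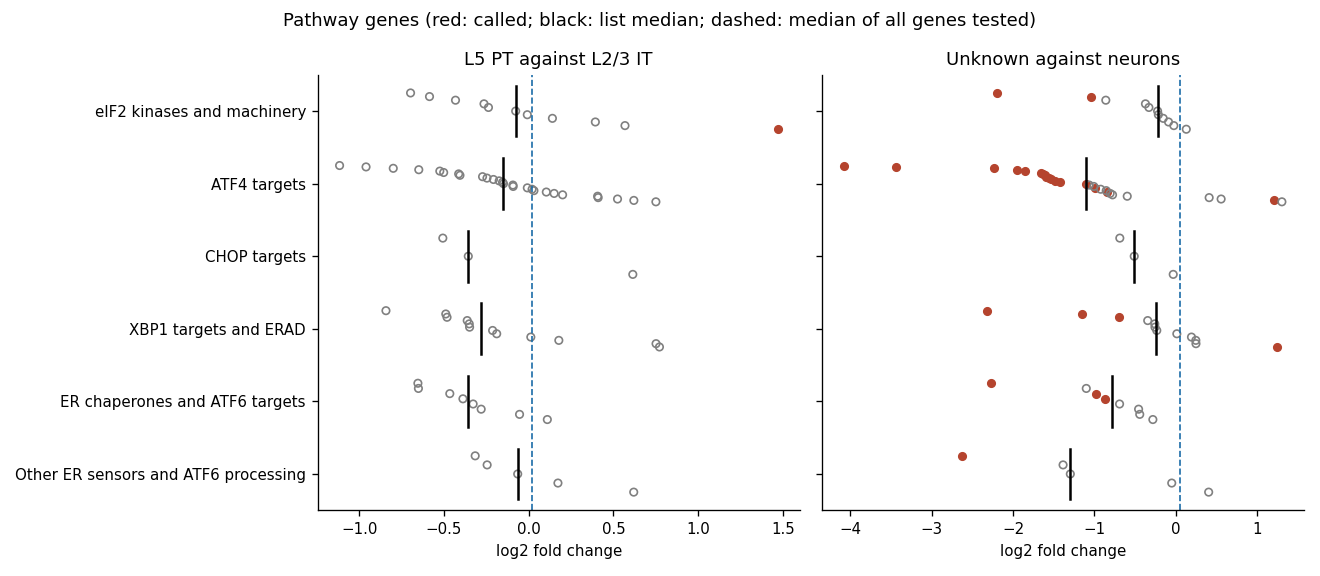
Log2 fold changes of the tested genes of 6 pathway lists in L5 PT against L2/3 IT (left) and Unknown against neurons (right). Each circle is a gene, red where the edgeR test called it, black bars are list medians and the dashed line is the median of all genes tested. On the left 1 gene is called, and on the right the ATF4 targets have a median of −1.10 with 17 called.

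Against microglia, neurons had 22 list genes higher and 15 lower of 66. Of all 10642 genes, 2850 (26.8%) were higher and 3528 were lower. The ATF4 targets made up 17 of the higher and 3 of the lower, with a median log2 fold change of 0.94 against −0.17 for all genes. Those with the largest difference were Aldh1l2 (3.34), the lipoprotein receptor Vldlr (2.91), the glycine transporter Slc6a9 (2.81) and Asns (2.58). The serine synthesis enzyme Psat1 (−1.37) was lower in neurons. Eif2ak2 (−3.72) was lower as well, and of the 12 XBP1 and degradation genes 5 were lower and 1 higher.

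A small set of neurons carried very high levels of several members. Deposited cluster 14 held 130 neuronal nuclei, 86 male and 44 female. L5 PT was the label of 49 (37.7%), L2/3 IT CTX-1 of 32 and L2/3 IT CTX-2 of 22, and none were inhibitory. The cluster was led by L2/3 IT when the CTX-1 and CTX-2 labels were joined. Since these genes could enter the clustering, its levels are a description with no test. Ddit3 was at 821 and 420 CPM there, Atf4 at 119 and 93.2 CPM and Ppp1r15a at 71.2 and 38.8 CPM. Chac1 was at 14.2 and 19.4 CPM, Atf3 at 351 and 381 CPM, and Trib3 at 61.7 and 54.4 CPM, against 45.8 and 32.3 CPM over all neurons. The nuclei were shallow, with medians of 1919 and 5241 UMIs.

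The cluster held 71.8% of the Ddit3 UMIs of male L2/3 IT CTX-2 and 50.7% of those of male L6 IT, but 10 and 11.3% in the female library. Outside it, Ddit3 stood at 237 and 143 CPM in L5 PT, 196 and 141 CPM in L6 IT, 70.1 and 112 CPM in L2/3 IT CTX-2 and 80.1 and 56.5 CPM in L2/3 IT CTX-1. L5 PT then lay above both L2/3 IT labels in both libraries. The cluster was singled out after its Ddit3 level was seen, so these values are a description that supports no difference between the labels. Ppp1r15a missed the threshold over the neuronal labels without the cluster (edgeR adjusted p = 0.39, the highest of 8 alternatives, the lowest being 0.00052 by DESeq2). Within the neuronal sums, Ddit3 was higher in the nuclei below the median depth of their sum in 13 of 18 and Ppp1r15a in 14, whereas Eif2ak3 and Ern1 were in 4 each. The part of depth in these levels was not tested beyond the thinned values.

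Neurons with a Ddit3 UMI were compared with neurons without one of the same label and library, in 16 pairs of sums, to ask which other genes went with Ddit3. Trib3 was higher in the positive nuclei, at 57.7 against 38.4 CPM in the male library, at 37.7 against 26.4 CPM in the other, and in 14 of 16 pairs (log2 fold change 0.61, SE 0.16, edgeR adjusted p = 0.024). It was 1 of 4 members tested, where 5.19% of 4490 genes passed and 1.78% were higher. Eif2ak3 (0.22, SE 0.09, edgeR adjusted p = 0.15), Ern1 (0.23, SE 0.15, edgeR adjusted p = 0.48) and Atf6 (0.08, SE 0.08, edgeR adjusted p = 0.66) did not pass. Eif2ak3 was nevertheless higher in 14 of 16 pairs, the same count as Trib3, with Ern1 higher in 8 and Atf6 in 10. Of 29 list genes tested, 3 passed and all were higher: Aldh1l2 (0.97, SE 0.14, edgeR adjusted p = 9.1e-05, in 15 of 16 pairs), the C/EBP factor Cebpg (0.45, SE 0.11, edgeR adjusted p = 0.015, in 13) and Hspa5 (0.43, SE 0.12, edgeR adjusted p = 0.024, in 12). Positive nuclei were deeper, with medians of 4367 against 3001 UMIs in male and 12383 against 8047 in female L5 PT. With nuclei thinned to 1 depth, Trib3 and Aldh1l2 were too sparse to test, Hspa5 had 0.73 (edgeR adjusted p = 0.018) and Cebpg 0.08 (edgeR adjusted p = 0.98). The split takes nuclei, not animals, as its unit. All 16 pairs came from the same 2 pools, so these p-values do not measure the spread between animals.

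**Figure D5:**
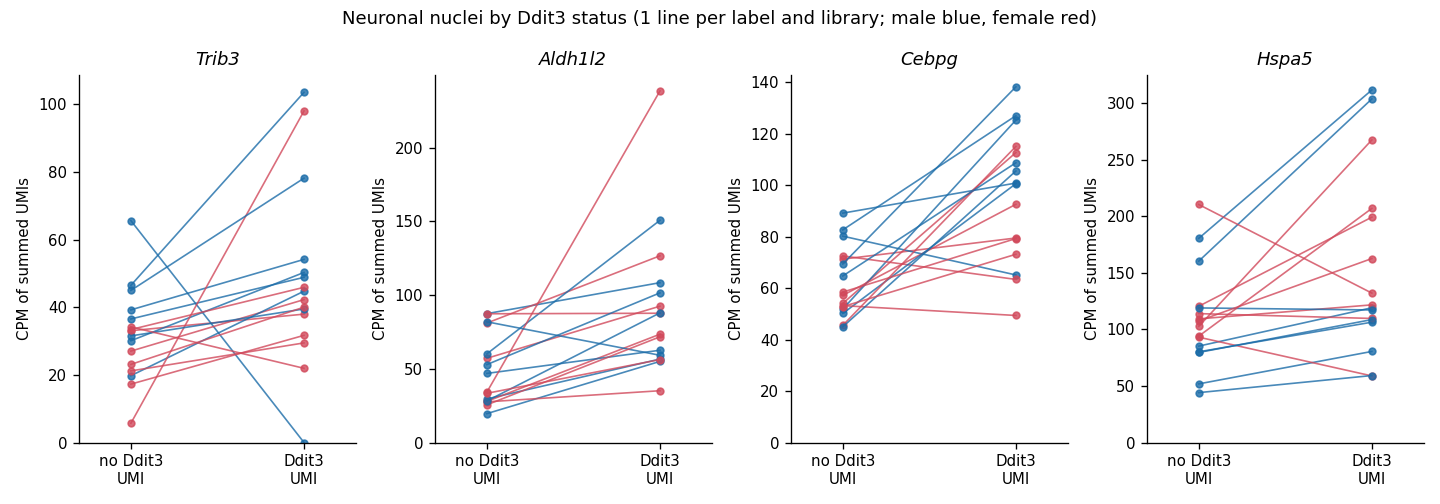
CPM of Trib3, Aldh1l2, Cebpg and Hspa5 in neuronal nuclei without and with a Ddit3 UMI, 1 line for each of 16 pairs of label and library (male blue, female red). Trib3 is higher with Ddit3 in 14 pairs, Aldh1l2 in 15, Cebpg in 13 and Hspa5 in 12.

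Across the 9 neuronal labels, the genes whose mean log2 level followed that of Ddit3 most closely were Bbip1 (Pearson's r 0.972), Luc7l (0.964), Tmsb4x (0.956), Lonp1 (0.943) and Uchl1 (0.932), of 6086 genes compared. The points share libraries and depth, and 9 labels allow high values among so many genes, so they are given as a description. In single libraries the values were lower, for Lonp1 0.839 and 0.390. Among the members, r was 0.704 for Ppp1r15a (0.633 and 0.602 in single libraries) and 0.641 for Atf4 (0.537 and 0.880). Other members depended on the library, with 0.702 for Ern1 (0.661 and 0.252) and 0.296 for Trib3 (0.323 and −0.272). Chac1 had −0.601 (−0.276 and −0.476).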

How the data were processed

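Nuclei were sequenced with 10x Genomics 3′ chemistry. Per the file headers and the study's methods, the authors counted UMIs with Cell Ranger on a GRCm38 pre-mRNA reference, so that intronic reads count, and deposited the counts per gene and barcode; the versions named in the labels and in the headers of the matrices differ. The authors also deposited a table of nuclei made in Seurat, with clusters, labels mapped from a motor cortex reference and the percent of mitochondrial UMIs per nucleus. A table of depth-corrected values was not used, and levels of some marker genes, with alternatives that rested on them, are not reported here. All table columns that were used name their library, and 0 columns of samples were left without one.

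Raw counts were summed per label and library for neuronal labels with at least 50 nuclei in the neuron subset, and for the Unknown and non-neuronal labels. Nuclei with a non-neuronal label inside the neuron subset (50) were taken as neurons, 81 nuclei in smaller labels and 654 nuclei in all fell outside the rule, and endothelial nuclei (5 and 0) were not fitted. The libraries shared 1 barcode. No doublet caller was run; an alternative left out nuclei above the 95th percentile of depth. One fit of 30 sums used edgeR 4.0.16 (TMM, filterByExpr by label, quasi-likelihood F test, Benjamini-Hochberg over 10642 genes, threshold 0.05) in R 4.3.3, with DESeq2 1.42.0 as an alternative; the residual degrees of freedom were 15 and the biological coefficient of variation 0.207. Labels share the 2 pools as replicates, and deviations of labels from the same pool correlated in all 36 pairs of neuronal labels (r 0.0216 to 0.404, median 0.135), so the library pairs the labels. In simulated data for L5 PT against L2/3 IT over 9016 genes, 53.5% of changes of log2 size 1 and 87.0% of size 2 were recovered. The simulated spread was smaller than that of the fit, all labels had the same mean profile, and no effect of the pool was drawn. These percentages can therefore be too high for the real data.

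Members, lists, tests and comparisons were chosen with earlier results of these data known. Named genes were the 10 members, list genes called between L5 PT and L2/3 IT (up to 5 in each direction), the 5 genes most correlated with Ddit3 at a mean of at least 20 CPM, the cell type markers and Atf3; other names were chosen after seeing values. Positions came from GENCODE on GRCm38 and promoters from RefSeq. Python 3.11.15 was used for sums and shares, with thinning under a fixed seed.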

Additional observations from a re-analysis of the deposited data

Results flagged for a closer look

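Barcodes of at most 100 UMIs, which lie outside every comparison, carried UMIs of all 10 members. Over 404769 such barcodes with 482960 UMIs in the male library and 666946 with 919800 in the female library, Ddit3 was at 201 and 124 CPM, above its level in microglia (53.3 and 33.1 CPM) and in all neurons (149 and 91.0 CPM). Trib3 was at 35.2 and 26.1 CPM there, against 45.8 and 32.3 CPM in neurons, Atf6 at 133 and 176 CPM, against 189 and 157 CPM, and Eif2ak3 at 110 and 79.4 CPM, against 113 and 113 CPM. Nuclei labelled Unknown, from the same libraries, had Ddit3 at 23.4 and 6.94 CPM and 1 UMI of Trib3 each.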

How the results depend on the processing

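Alternatives chosen after seeing the data were thinning and leaving out cluster 14 or the Vip label. Over settings other than single libraries, member results kept direction and side of the threshold in 337 cases, lost significance in 23, gained it in 11 and reversed in 18; pathway genes kept it in 656 and lost it in 105. The ambient subtraction lowered genes called from 852 to 212 (L5 PT against L2/3 IT), 1853 to 837 (inhibitory), 1156 to 291 (other excitatory), 3283 to 1910 (Unknown) and 2905 to 1222 (over neuronal labels). Thinning gave 447, 965, 623, 1967 and 1546, and 29 instead of 233 by Ddit3 status, where no filter gave 377. In L5 PT against L2/3 IT, 0 members were called, but 2 with the library as a replicate block and 1 each without the filter, without cluster 14 and with nuclei in clusters led by their own label. The block changed no other member call. The 3 inhibitory calls became 0 after ambient subtraction and 1 each without the filter, when thinned and without cluster 14. The 2 in L5 PT against other excitatory became 0 after ambient subtraction and 1 with DESeq2. The 4 over neuronal labels became 0, and 2 when thinned; the 1 by Ddit3 status became 0 when thinned. Reversals concerned log2 fold changes near 0. In L5 PT against L2/3 IT, Atf6 became −0.016 with DESeq2 and with RLE, −0.11 without deep nuclei, −0.39 thinned and −0.069 in own clusters. Eif2ak3 became −0.11 without deep nuclei, −0.12 thinned and −0.020 without cluster 14, and Trib3 −0.0067 thinned, −0.041 without cluster 14 and −0.071 in own clusters. Against other excitatory labels, Atf4 became −0.029 without deep nuclei, −0.048 after the ambient subtraction, Atf6 −0.038 without deep nuclei and −0.14 thinned, Eif2ak3 −0.088 thinned and Ppp1r15a 0.031 without cluster 14. By Ddit3 status, Atf6 became −0.050 when thinned. The causes were not tested. As a mean over nuclei the levels in neurons were 17.9 CPM for Atf4, 8.74 for Atf5, 108 for Eif2ak3 and 12.6 for Ppp1r15a. Thinned to 1000 UMIs, shares of neurons were 11% for Ddit3, 1.73% Atf4, 0.527% Atf5, 14% Atf6, 10.2% Eif2ak3, 5.70% Ern1, 1.38% Xbp1, 3.83% Trib3, 0.461% Chac1 and 0.792% Ppp1r15a. Single libraries have no residual degrees of freedom and give values with no test; Ddit3 in L5 PT against L2/3 IT was 0.94 without replicate 1 and 1.09 without replicate 2. Removing every neuron with any microglial UMI was not run, since at most 7 female nuclei a label were left.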
